A study of Mus musculus with 10 samples.

Results

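The S100 genes described here are S100a1, S100a4, S100a6, S100a8, S100a9, S100a10, S100a11 and S100a13, 8 genes of the 27179 in the count table, taken by symbol and followed across 5 sorted cell populations of the mouse mammary gland. The populations came from adult virgin female C57BL/6 mice and carried no transgene or treatment per the labels. They were ductal macrophages, stromal macrophages, CD11b+ dendritic cells, CD11b-CD103+ dendritic cells (hereafter CD103+ cells) and CD11b-CD103- dendritic cells (hereafter CD103- cells), with 2 biological replicates each and 10 libraries in all. CD11b and CD103 are integrin chains used to sort the dendritic cells. The labels do not say whether a replicate was 1 mouse or a pool, and a sorted bulk sample cannot tell fewer cells with a transcript from less transcript per cell.

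S100 proteins are small calcium-binding proteins that act mainly as dimers. Binding of calcium to their EF-hand loops exposes a surface that holds target proteins such as annexins, cytoskeletal proteins and enzymes. Some are also released from cells and bind receptors on leukocytes. Calprotectin, the pair of S100A8 and S100A9, is an abundant product of neutrophils and of blood monocytes, and S100A4 and S100A6 are well known from motile cells.

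All 8 genes lie on mouse chromosome 3 and are protein coding (coordinates of the GRCm38 build). The first group of 6 spans 90511034 to 90695721. It holds S100a1 (gene ID 20193, 90511034 to 90514392, minus strand), S100a13 (20196, 90514435 to 90524581, plus), S100a4 (20198, 90603771 to 90606045, plus), S100a6 (20200, 90612882 to 90624181, plus), S100a8 (20201, 90668978 to 90670035, plus) and S100a9 (20202, 90692632 to 90695721, minus). The other pair lies 2.82 Mb further along, with S100a11 (20195, 93520488 to 93526287, plus) next to S100a10 (20194, 93555080 to 93564643, plus). Reads of S100a1 and S100a13 could be mixed where their RefSeq models overlap by 98 bases on opposite strands, since no label or note used here gives the strand setting of the counting. S100a4 shares its place with a longer gene model on the same strand, Gm42674, so its counts are uncertain to the extent that the authors' counting divided reads between them.

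Promoter windows were searched for 7 of the 8 genes, over the 250 bases before the RefSeq start (GRCm38.p6), on both strands. The motifs were the TATA box (TATAAA, in 12.4% of 32851 windows of that length), the AP-1 site (TGANTCA, 6.75%), the C/EBP site (TTGCNNAA, 9.56%) and the Sp1 site (GGGCGG, 32.7%), and none of them contains another. S100a4 and S100a8 each had 1 TATA box, S100a9 had 1 C/EBP and 1 Sp1 match, S100a11 had 2 AP-1 and 3 Sp1 matches, and S100a1, S100a6 and S100a13 had no match to any of the 4. Stretches upstream of the RefSeq start of 4 genes are shown, with matches in capitals. The S100a8 stretch lies within the span of that gene given above, which begins before the RefSeq start. One AP-1 match of S100a11, 130 to 136 bases before the RefSeq start, falls outside its printed stretch. S100a4, S100a6 and S100a11 are members with high but differently distributed RNA, and S100a8 is a member with almost none. A match is a run of letters and not a known binding site.
S100a4, chr3:90603670-90603769, plus strand: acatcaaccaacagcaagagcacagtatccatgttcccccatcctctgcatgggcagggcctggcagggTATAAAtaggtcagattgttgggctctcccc
S100a6, chr3:90612782-90612881, plus strand: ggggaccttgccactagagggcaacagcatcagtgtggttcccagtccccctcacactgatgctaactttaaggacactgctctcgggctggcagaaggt
S100a11, chr3:93520368-93520487, plus strand: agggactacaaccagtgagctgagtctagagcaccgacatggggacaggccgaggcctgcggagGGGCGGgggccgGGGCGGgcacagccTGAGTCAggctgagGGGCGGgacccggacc
S100a8, chr3:90669029-90669058, plus strand: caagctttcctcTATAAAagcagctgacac
The TATA box lay 26 to 31 bases before the RefSeq start in S100a4 and 25 to 30 bases before it in S100a8. S100a4 RNA was abundant in CD11b+ dendritic cells and S100a8 RNA was near 0 in all 5 populations, and the part of this element was not tested.

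Library totals ran from 5636092 to 23093742 counts, with both ductal libraries and 1 CD11b+ library at the low end. Values are in CPM, meaning counts relative to the TMM-adjusted total of a library, and as RPKM, which is CPM per kilobase of exon, where genes are compared with each other. Itgam, which encodes CD11b, had 701 and 556 CPM in the CD11b+ cells, against 7.28 to 11.4 CPM in the 4 CD11b- libraries. Itgae, which encodes CD103, had 158 and 172 CPM in the CD103+ cells, against 9.39 and 3.80 CPM in the CD103- cells. Macrophage markers summed to 10968 and 9607 CPM in the ductal and 3898 and 2777 CPM in the stromal macrophages, with all 6 genes detected. The CD11b+ dendritic cells also had macrophage markers (1372 and 1298 CPM), mostly Csf1r, Cd68 and Adgre1. Their C1qa, Fcgr1 and Mertk were at means of 24.6, 2.62 and 8.12 CPM, against 1601, 127 and 38.3 CPM in stromal macrophages. Their dendritic cell markers (9 genes) summed to 1694 and 1150.4 CPM, against 1853 to 2663 CPM in the CD11b- libraries. Cd209a led that sum, at a mean of 981 CPM, against 27.9 CPM in CD103+ and 9.29 CPM in CD103- cells. Their Flt3, the dendritic cell growth factor receptor, was at 16.8 and 18.1 CPM, against 314 to 520.2 CPM in the CD11b- libraries. Zbtb46, Dpp4, Xcr1, Clec9a and Irf8 were also lower in CD11b+ cells. Sirpa, at a mean of 224 CPM in CD11b+ cells, and Irf4 were higher there than in the CD11b- cells. Every library held RNA of mammary epithelium, fibroblasts and adipocytes, and their sums are given beside the comparisons whose groups they separated.

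S100A10, also called p11, forms a tight complex with annexin A2 that binds plasminogen at the cell surface, and unlike its relatives it does not depend on calcium. Its gene had the widest range of the 6 well detected members. S100a10 had 14.6 and 24.6 CPM in the ductal macrophages and 604 and 505 CPM in the stromal macrophages. In the dendritic cells it had 1073 and 991 CPM in CD11b+, 190.0 and 261 CPM in CD103+ and 305 and 287 CPM in CD103- cells. The CD11b+ mean was 52.7 times the ductal mean, and both ductal libraries lay far below the other 8.

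The step down to the ductal macrophages was clear, while the other steps in this order were marginal or not called. S100a10 was lower in stromal macrophages than in CD11b+ cells (log2 fold change ± SE of -0.90 ± 0.29, edgeR quasi-likelihood test, adjusted p = 0.0398) and higher in stromal macrophages than in CD103- cells by 0.91 ± 0.29 (adjusted p = 0.0305). Both of these calls were marginal. The first had an adjusted p of 0.0538 and 0.157 without stromal replicate 1 and 2, 0.166 and 0.11 without CD11b+ replicate 1 and 2, 0.0507 and 0.0514 without CD103- replicate 1 and 2, and 0.0571 with a replicate block. The second had an adjusted p of 0.151 without stromal replicate 1 and 0.0943 and 0.123 without CD103- replicate 1 and 2, and with library totals alone it was 0.40 (adjusted p = 0.236). The CD103+ and CD103- cells were not told apart (log2 difference -0.39, 95% interval -1.02 to 0.23), and ductal macrophages lay below the CD103+ cells (-3.52 ± 0.32, adjusted p = 2.89e-05).

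**Figure D1:**
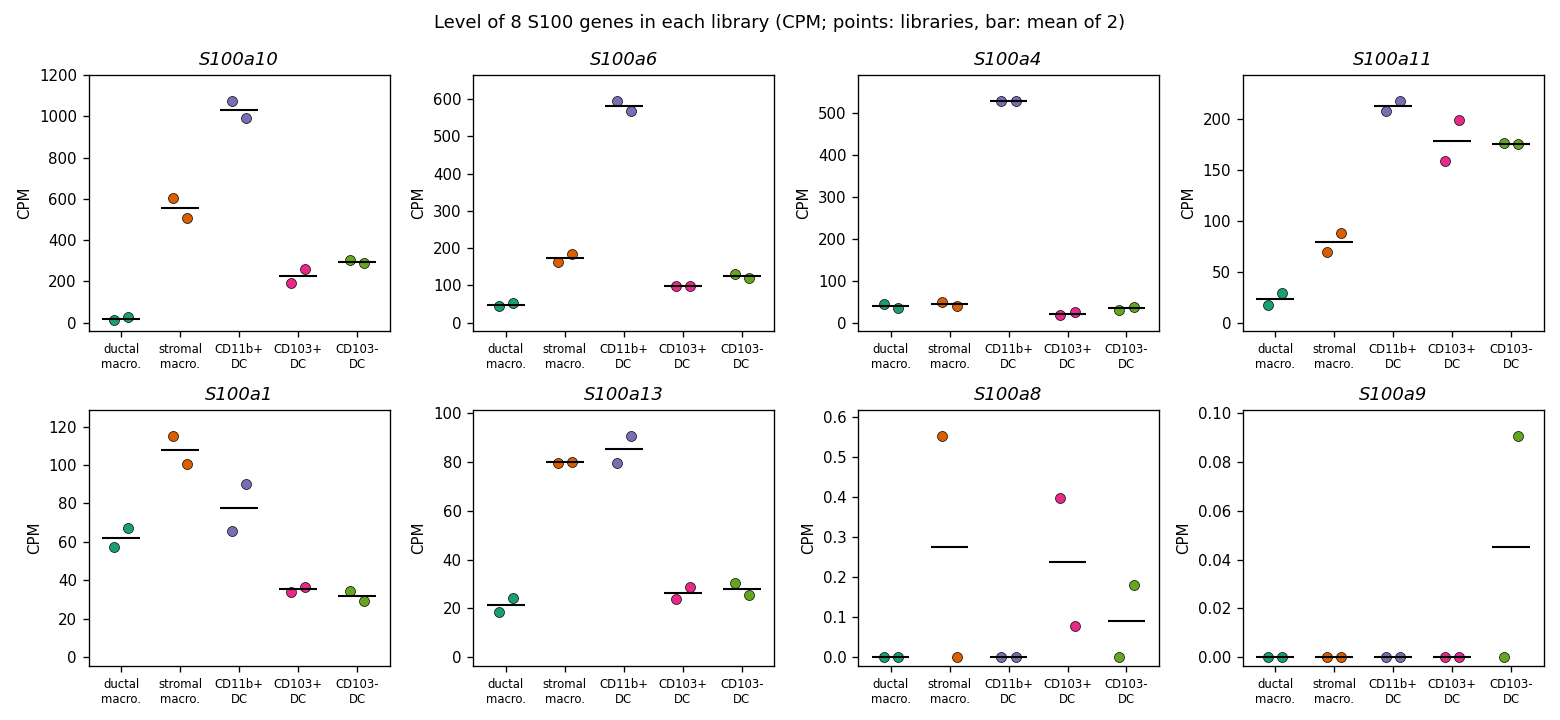
Level of each of the 8 S100 genes in CPM (vertical axis, starting near 0 and scaled per gene) in the 5 populations (horizontal axis), where points are libraries and the bar is the mean of 2. S100a10, S100a6 and S100a4 were highest in CD11b+ dendritic cells at means of 1032, 581 and 529 CPM, while no library exceeded 0.552 CPM for S100a8 or 0.0905 CPM for S100a9.

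S100A6, or calcyclin, is found in proliferating and motile cells and binds the ubiquitin ligase component CACYBP. S100a6 had 44.9 and 51.6 CPM in ductal macrophages, 163 and 183 CPM in stromal macrophages, 594 and 568 CPM in CD11b+, 99.1 and 96.9 CPM in CD103+ and 131 and 121 CPM in CD103- dendritic cells. The 5 populations did not overlap in any library. Stromal macrophages had less S100a6 than CD11b+ cells (log2 difference -1.75 ± 0.22, adjusted p = 2.32e-04), and ductal macrophages had less than CD103+ cells (-1.02 ± 0.22, adjusted p = 0.00604, and 0.0773 without ductal replicate 1). Neither the stromal macrophages against the CD103- cells (0.46, interval -0.01 to 0.92) nor the CD103+ against the CD103- cells (-0.37, interval -0.83 to 0.10) passed the test.

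S100A4, known as metastasin and as fibroblast-specific protein, binds the heavy chain of non-muscle myosin IIA. S100a4 RNA was concentrated in 1 population. It had 45.1 and 34.8 CPM in ductal macrophages, 48.0 and 40.5 CPM in stromal macrophages, 529 and 529 CPM in CD11b+, 17.1 and 26.0 CPM in CD103+ and 29.8 and 38.3 CPM in CD103- dendritic cells. The stromal macrophages came next, with a log2 fold change of -3.58 ± 0.29 against the CD11b+ cells (adjusted p = 2.21e-05). Among the other 4 populations no neighbours in the order differed by the test, and the libraries of neighbours overlapped except between CD103- and CD103+ cells. Ductal macrophages exceeded the CD103+ cells, the lowest population, by 0.89 log2 units (adjusted p = 0.0367), and stromal macrophages exceeded them by 1.04 (adjusted p = 0.0128). The ductal call was lost without either ductal library (adjusted p = 0.256 and 0.0601 without replicate 1 and 2), either CD11b+ library (0.0601 and 0.0586) or CD103+ replicate 1 (0.242), with a replicate block (0.0523) and with library totals alone (0.28 log2 units, 0.338). The stromal call was lost without stromal replicate 1 (0.0751) or CD103+ replicate 1 (0.105), and with library totals alone (0.55 log2 units, 0.0724).

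S100A11, or calgizzarin, binds annexin A1 and takes part in membrane repair. S100a11 was lower in macrophages than in dendritic cells, and lowest in ductal macrophages. It had 17.5 and 29.1 CPM in ductal macrophages, against 68.9 and 88.2 CPM in stromal macrophages. In the dendritic cells it had 208 and 217 CPM in CD11b+, 158 and 199 CPM in CD103+ and 176 and 175 CPM in CD103- cells, and these 3 populations were not told apart by the test. Stromal macrophages lay below the CD103- cells (log2 fold change -1.16 ± 0.27, adjusted p = 0.00701), and every macrophage library was below every dendritic cell library. The step from stromal down to ductal macrophages was larger (-1.74 ± 0.28, adjusted p = 9.69e-04).

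S100A1 is best known from heart muscle, where it binds the calcium pump SERCA2, and S100A13 is part of the unconventional release of FGF1 and interleukin 1 alpha. The neighbouring genes S100a1 and S100a13 were both high in stromal macrophages and CD11b+ cells. S100a1 had 57.4 and 67.1 CPM in ductal macrophages, 115 and 100.3 CPM in stromal macrophages, 65.7 and 90.1 CPM in CD11b+, 34.0 and 36.6 CPM in CD103+ and 34.6 and 29.5 CPM in CD103- dendritic cells. Its range was the narrowest, with the highest mean 3.38 times the lowest, and both CD11b- populations lay below the other libraries.

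Neighbours in the S100a1 order of stromal macrophages, CD11b+ cells and ductal macrophages did not differ by the test. Ductal macrophages exceeded the CD103+ cells in S100a1 by 0.82 ± 0.24 (adjusted p = 0.0279). That call did not hold without ductal replicate 1 or 2 (adjusted p = 0.0798 and 0.147), without CD103+ replicate 1 or 2 (0.148 and 0.0902) or with library totals alone (0.536). S100a13 had 18.7 and 24.2 CPM in ductal macrophages, 79.5 and 80.1 CPM in stromal macrophages, 79.6 and 90.5 CPM in CD11b+, 23.7 and 28.7 CPM in CD103+ and 30.5 and 25.6 CPM in CD103- dendritic cells. It fell into 2 levels. Stromal macrophages and CD11b+ cells were not told apart (log2 difference -0.09, interval -0.59 to 0.41), the step from stromal macrophages down to the CD103- cells was 1.51 ± 0.23 (adjusted p = 6.19e-04), and no neighbours below that step differed. With library totals alone, ductal macrophages were called below the CD103+ cells (-0.89, adjusted p = 0.0222) and the CD103- cells (adjusted p = 0.0127).

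S100a8 and S100a9, the calprotectin genes, were nearly absent. S100a8 had 0 counts in both ductal and both CD11b+ libraries, 10 and 0 counts in stromal macrophages, 10 and 2 counts in CD103+ cells and 0 and 4 counts in CD103- cells. S100a9 had 2 counts in CD103- replicate 2 and 0 counts in the other 9 libraries. A count of 0 allowed up to 0.310 CPM over both ductal libraries and up to 0.149 CPM over both CD11b+ libraries (3 counts each, counting error only). Neither gene passed the filter on low counts, and without the filter neither was called in any of the 5 main comparisons (adjusted p from 0.38 to 1).

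Neutrophil markers were read beside them. Of 10 such genes, Ngp, Camp and Cxcr2 had 0 counts in all 10 libraries and Ly6g had at most 1 count. The list still summed to 179 and 171 CPM in ductal macrophages, 91.2 and 337 in stromal macrophages, 65.8 and 177 in CD11b+, 225 and 76.1 in CD103+ and 91.9 and 38.0 in CD103- cells. Ltf, also made by mammary epithelium, and the receptor gene Csf3r made up most of it, and Retnlg reached 30.3 CPM in CD11b+ cells, 10.3 CPM in stromal macrophages and at most 0.436 CPM elsewhere.

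Added over the 8 genes, S100 RNA amounted to 198 and 232 CPM in ductal macrophages, 1079 and 997 CPM in stromal macrophages, 2550.0 and 2486 CPM in CD11b+, 522 and 648 CPM in CD103+ and 707 and 677 CPM in CD103- cells. The populations did not overlap. Per length of transcript, the mix differed as well as the total. In ductal macrophages S100a1 held the largest share of the summed RPKM at 28.5% ± 0.273 (SD, n = 2), followed by S100a4 at 22.9% ± 6.43, with S100a10 at 8.38% ± 2.22. In stromal macrophages S100a10 held 52.4% ± 3.73 and S100a1 10.8%. CD11b+ cells had S100a10 at 38.5% ± 1.55 and S100a4 at 25.7% ± 0.394. In CD103+ cells S100a11 (36.3% ± 0.244) and S100a10 (35.4% ± 2.38) were about even, and in CD103- cells S100a10 held 40.0% ± 0.764 and S100a11 30.6% ± 0.739. These shares were not tested. These shares depend on the exon lengths. With the longer GENCODE exon union, S100a10 held 5.59% in ductal and 42.2% in stromal macrophages, and S100a1 still led in ductal macrophages at 31.4%. The order of the leading genes turned in CD11b+ and CD103- cells, and the near tie in CD103+ cells ended. With that length S100a10 held 30.1% in CD11b+ cells, below S100a4, and the shares were S100a11 47.7% and S100a10 25.3% in CD103+ cells, and S100a11 41.7% and S100a10 29.6% in CD103- cells.

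**Figure D2:**
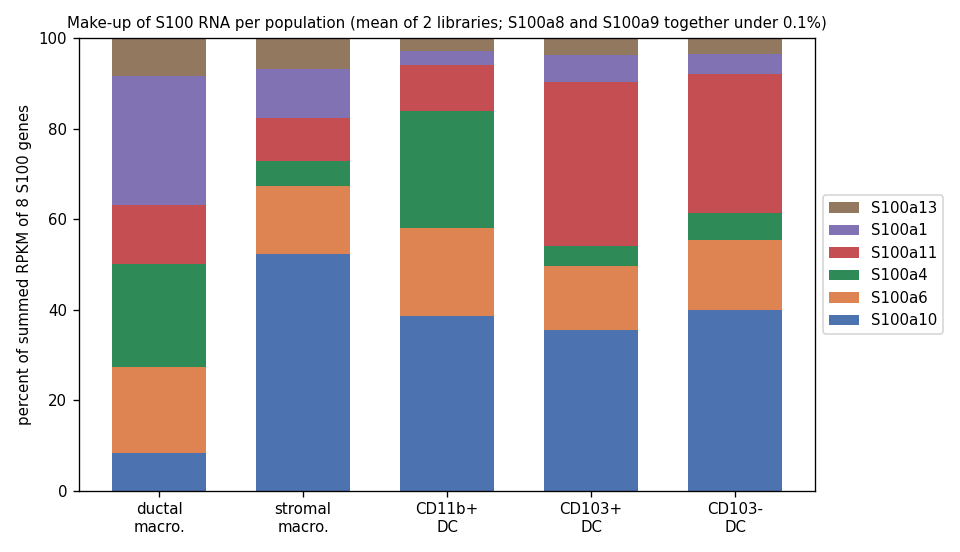
Stacked bars give the percent of the summed RPKM of the 8 genes (vertical axis, 0 to 100) held by each member in the 5 populations (horizontal axis), as means of 2 libraries. S100a10 took 8.38% in ductal macrophages and 52.4% in stromal macrophages, and S100a4 took 25.7% in CD11b+ dendritic cells.

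Ductal and stromal macrophages were compared first. No S100 gene was higher and 5 were lower in ductal macrophages, of the 6 that could be tested, where 16.3% of all 15681 tested genes were called higher and 14.3% lower. S100a10 fell most, to 19.6 ± 7.08 CPM in ductal against 554 ± 69.5 CPM in stromal macrophages (SD, n = 2 each), a log2 fold change of -4.82 ± 0.34 or 28.2-fold (adjusted p = 5.71e-06). S100a13 fell by 1.89 ± 0.24 (adjusted p = 2.09e-04), S100a6 by 1.84 ± 0.22 (adjusted p = 1.28e-04) and S100a11 by 1.74 ± 0.28 (adjusted p = 9.69e-04). S100a1 was 62.3 ± 6.89 CPM in ductal macrophages, against 108 ± 10.5 CPM in stromal macrophages (-0.79 ± 0.23, adjusted p = 0.0262). The S100a1 call was lost without ductal replicate 1 (adjusted p = 0.174), ductal replicate 2 (0.0695) or stromal replicate 1 (0.113). S100a4 did not pass, at 40.0 ± 7.28 CPM in ductal macrophages, against 44.3 ± 5.30 CPM in stromal macrophages (-0.15, interval -0.74 to 0.44), and its sign turned without ductal replicate 2 (0.03) or stromal replicate 1 (0.01).

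Depth and markers of other cells moved with this contrast. Both ductal libraries were shallower than both stromal ones, and S100a10 had 64 and 130 counts in ductal and 10935 and 8752 counts in stromal macrophages. Monocyte markers (4 and 6 of 6 genes detected in the ductal libraries, 6 and 5 of 6 in the stromal ones) summed to 95.4 and 67.9 CPM in ductal macrophages, against 366 and 359.6 CPM in stromal macrophages. Luminal epithelial markers (5 of 5 genes detected) summed to 158 and 293 CPM in ductal macrophages, against 737 and 2016 CPM in stromal macrophages. Adipocyte markers summed to 44.9 and 144 CPM in ductal macrophages (4 of 6 detected in each library, with Plin1 at 0 in both) and 433 and 647 CPM in stromal macrophages (6 of 6). Fibroblast markers (5 of 5) summed to 401 and 1182 CPM in ductal macrophages, against 1092 and 1508 CPM in stromal macrophages, which overlapped. In all 3 lists the second replicate was the higher one in both populations. Their part in the S100 differences was not tested.

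Against the mean of the 3 dendritic cell populations, weighted equally on the log scale, ductal macrophages again had 5 S100 genes lower and none higher, beside 11.6% lower and 15% higher among all tested genes. S100a10 lay lower by a log2 fold change of -4.38 ± 0.31 (adjusted p = 2.41e-06), S100a11 by -3.00 ± 0.27 (adjusted p = 1.21e-05) and S100a6 was lower with an interval of -2.44 to -1.56 (adjusted p = 2.52e-05). The other 2 calls were smaller, with S100a13 at -0.88 ± 0.21 (adjusted p = 0.00841) and S100a4 at -0.87 ± 0.23 (adjusted p = 0.0172). Without ductal replicate 1 both were lost (adjusted p = 0.139 for S100a13 and 0.066 for S100a4, which left 3 genes lower), and without ductal replicate 2 S100a4 was lost (0.174). The mean hides opposite differences in S100a4, which in ductal macrophages was below the CD11b+ cells and above the CD103+ cells. The S100a4 call against the CD103+ cells was lost in the alternative runs given above. S100a1 did not pass (0.49, interval 0.07 to 0.90, adjusted p = 0.0799), and with library totals alone its difference was -0.001. Luminal markers were lower in ductal macrophages (158 and 293 CPM) than in every dendritic cell library (328 to 1171 CPM), as were monocyte markers (95.4 and 67.9 CPM, against 305 to 1444 CPM), and their part was not tested.

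Stromal macrophages differed from the mean of the dendritic cells in both directions. S100a1 (1.28 ± 0.18, adjusted p = 2.68e-04) and S100a13 (1.01 ± 0.18, adjusted p = 0.0012) were higher. S100a11 (-1.26 ± 0.23, adjusted p = 0.00169) and S100a4 (-0.72 ± 0.22, adjusted p = 0.0265) were lower. Of all tested genes, 20.3% were called higher and 18.2% lower, so 2 and 2 of 6 are near the shares of the whole table. S100a4 was no longer called without stromal replicate 2 (adjusted p = 0.154) or CD11b+ replicate 1 (0.051), which left 1 gene lower in each case. S100a10 (0.44, interval -0.06 to 0.93) and S100a6 (-0.16, interval -0.54 to 0.22) did not pass the test. Fibroblast markers (5 of 5) were higher in stromal macrophages, at 1092 and 1508 CPM, than in every dendritic cell library (278 to 887 CPM), and their part was not tested.

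Within the dendritic cells, the CD11b+ population was set against the mean of both CD11b- populations. In it 5 of the 6 tested S100 genes were higher and none lower, where 14% of all tested genes were higher and 11% lower. S100a4 rose most, to 529 ± 0.137 CPM in CD11b+ cells, against 21.6 ± 6.27 CPM in CD103+ and 34.0 ± 6.05 CPM in CD103- cells (log2 fold change 4.29 ± 0.23 or 19.5-fold, adjusted p = 8.85e-07). S100a6 was higher by 2.38 ± 0.17 (adjusted p = 6.19e-06), S100a10 with an interval of 1.48 to 2.52 (adjusted p = 1.57e-04), S100a13 by 1.65 ± 0.19 (adjusted p = 1.41e-04) and S100a1 by 1.21 ± 0.19 (adjusted p = 0.00123). S100a11 did not pass (0.27, interval -0.23 to 0.76), and its difference was -0.11 with library totals alone. The 5 calls held without each of the 10 libraries in turn.

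Monocyte markers (6 genes) moved the same way, at 1444 and 1044 CPM in the CD11b+ cells, against 305 and 385 CPM in CD103+ and 474 and 801 CPM in CD103- cells. Nearly all of the CD11b+ sum was Ccr2, a chemokine receptor gene, with 1407 and 1014 CPM, while the defining monocyte gene Ly6c2 was at 2.41 and 1.97 CPM there and Chil3 at 0.0688 and 0.359 CPM. Luminal markers, in contrast, overlapped, with 451 and 1171 CPM in CD11b+ cells, against 1056 and 535 CPM in CD103+ and 715 and 328 CPM in CD103- cells. Macrophage markers were higher in CD11b+ cells (1372 and 1298 CPM) than in the CD11b- libraries (212 to 315 CPM, with Fcgr1 at 0 in 1 of them). Adipocyte markers separated the groups the other way. They summed to 80.3 and 101 CPM in CD11b+ cells (4 and 5 of 6 genes detected, with Lep at 0 in both), against 552 and 369 CPM in CD103+ cells (5 and 6 detected) and 443 and 228 CPM in CD103- cells (6 and 5). The part of the monocyte, macrophage and adipocyte genes in the S100 differences was not tested.

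CD103+ and CD103- cells were not told apart by any S100 gene, and 0.0319% of all tested genes were called higher (5 genes) and 0% lower by edgeR. The DESeq2 Wald test also called none of the 6. The one with an unadjusted p under 0.05 was S100a4, with 17.1 and 26.0 CPM in CD103+ and 29.8 and 38.3 CPM in CD103- cells (log2 difference -0.66, interval -1.24 to -0.07, adjusted p = 0.747). The intervals of the other 5 reached from -1.02 (S100a10) to 0.65 (S100a1), so the 4 libraries left differences of up to that size undecided.

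**Figure D3:**
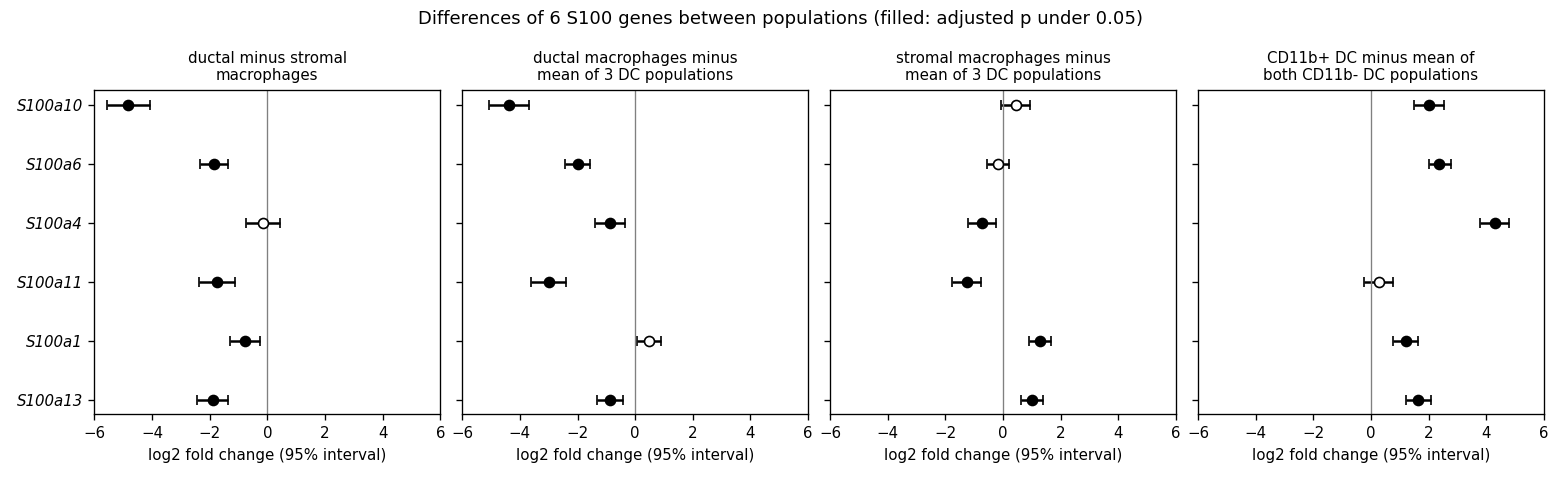
Log2 fold changes of the 6 tested S100 genes with 95% intervals (horizontal axis) in 4 comparisons, where filled points passed an adjusted p of 0.05. S100a10 lies at -4.82 in ductal against stromal macrophages, and S100a4 at 4.29 in CD11b+ against CD11b- dendritic cells.

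Over all 10 pairs of populations, 43 of 60 tests of a member passed in either direction. Ductal macrophages differed from CD11b+ cells in 5 of the 6 tested members (23.3% of all tested genes were called), from CD103+ cells in 5 (23.9%) and from CD103- cells in 4 (22.9%). Stromal macrophages differed from CD11b+ cells in 4 (26.1%), from CD103+ cells in 6 (33.6%) and from CD103- cells in 4 (35.3%). CD11b+ cells differed from CD103+ cells in 5 (20.8%) and from CD103- cells in 5 (17.5%). These pairs share libraries with each other and with the comparisons above.

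The known partners of S100 proteins inside the cell were examined by the member they bind. Anxa2, whose product forms the complex with S100A10, and Ahnak, a giant scaffold protein that binds this complex, were also lowest in ductal macrophages. Anxa2 had 69.2 and 105 CPM in ductal macrophages, against 648 and 752 CPM in stromal macrophages, 2088 and 2218 CPM in CD11b+, 1028 and 1711 CPM in CD103+ and 1594 and 1250.2 CPM in CD103- cells. Unlike S100a10, it was lower in stromal macrophages than in the mean of the dendritic cells (-1.20 ± 0.28, adjusted p = 0.00693), and it was not called between CD11b+ and CD11b- cells. Ahnak had 19.6 and 45.2 CPM in ductal macrophages, against 484 and 529 CPM in stromal macrophages, 1066 and 753 CPM in CD11b+, 707 and 865 CPM in CD103+ and 964 and 688 CPM in CD103- cells.

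Against stromal macrophages, ductal macrophages had log2 fold changes of -3.00 ± 0.35 for Anxa2 (adjusted p = 1.11e-04) and -3.96 ± 0.42 for Ahnak (adjusted p = 5.73e-05, with -4.69 without ductal replicate 2). Anxa1, the annexin bound by S100A11, had 58.8 and 81.0 CPM in ductal macrophages, against 587 and 504 CPM in stromal macrophages (-2.96 ± 0.30, adjusted p = 4.22e-05). In the dendritic cells Anxa1 had 862 and 803 CPM in CD11b+, 542 and 803 CPM in CD103+ and 679 and 724 CPM in CD103- cells, and no pair of these populations was told apart by it. Unlike S100a11, Anxa1 was not called between stromal macrophages and the mean of the dendritic cells.

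**Figure D4:**
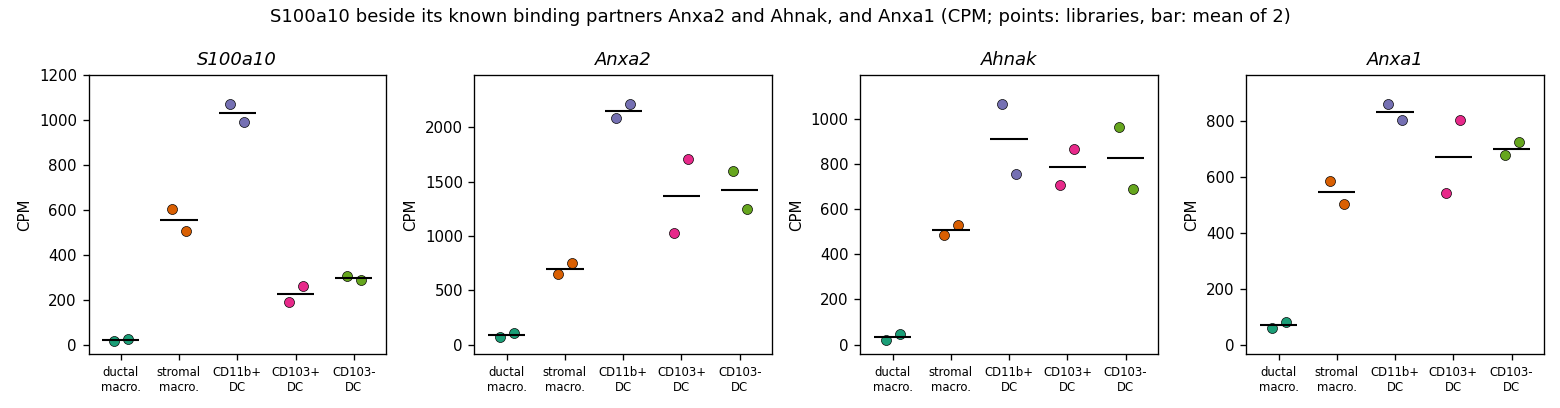
Level in CPM (vertical axes, scaled per gene) of S100a10, its known partners Anxa2 and Ahnak, and Anxa1 in the 5 populations (horizontal axis), where points are libraries and bars are means of 2. Both ductal libraries lay lowest for each of the 4 genes, at most 24.6 CPM for S100a10, 105 CPM for Anxa2, 45.2 CPM for Ahnak and 81.0 CPM for Anxa1.

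Of 12 annexin genes, which encode calcium-dependent membrane-binding proteins, 10 could be tested. In ductal against stromal macrophages 1 was higher, 6 lower and 3 did not pass (median log2 fold change -1.07, against -0.10 over all tested genes). Of all tested genes, 16.3% were called higher and 14.3% lower in this comparison. Anxa11 was the higher one (1.70 ± 0.34, adjusted p = 0.0034). Anxa8 had 0 and 1 counts in ductal and 63 and 119 counts in stromal macrophages, a ratio of stromal to ductal of 49.7 (exact interval of the counts 8.81 to 1974). Its call (adjusted p = 0.00807) was lost without ductal replicate 1 (0.0702). Anxa9 was lower by a log2 fold change of -2.13 ± 0.55 (adjusted p = 0.0135), and was not called without ductal replicate 1 or 2 (0.0994 and 0.0595) or stromal replicate 2 (0.0646). Without either ductal library 4 annexins were lower.

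Against the mean of the dendritic cells, 4 annexins were higher and 5 lower in ductal macrophages (median -0.48, against -0.09 over all tested genes). There 15% of all tested genes were called higher and 11.6% lower. Anxa2 (-4.21 ± 0.35, adjusted p = 6.84e-06), Anxa1 (-3.39 ± 0.28, adjusted p = 6.86e-06) and Anxa6 (-1.61 ± 0.22, adjusted p = 2.53e-04) were lower, and Anxa5, whose product binds phosphatidylserine, was higher (1.57 ± 0.20, adjusted p = 1.75e-04). Without ductal replicate 1 or 2 the count was 2 higher and 3 lower, and the 4 calls lost were Anxa4 (adjusted p = 0.278 and 0.0962), Anxa11 (0.0856 and 0.0831), Anxa7 (0.0625 and 0.0971) and Anxa8 (0.161 and 0.0688). Library totals alone gave 2 higher. In stromal macrophages, where 20.3% of all tested genes were higher and 18.2% lower, 4 annexins were higher and 1 lower (median 0.56, against 0.03). Anxa9 (1.93 ± 0.38, adjusted p = 0.0023) and Anxa3 (1.63 ± 0.26, adjusted p = 7.23e-04) led the higher ones. The count lower was 2 by DESeq2 or without CD103- replicate 2, and 4 with library totals alone. CD11b+ cells had 2 higher and 1 lower than the CD11b- cells (median 0.36, against -0.07), beside 14% and 11% of all tested genes. These annexins were Anxa4 (1.52 ± 0.23, adjusted p = 7.74e-04), Anxa5 (1.36 ± 0.22, adjusted p = 0.0013) and Anxa6 (-1.93 ± 0.23, adjusted p = 1.62e-04). None of the 10 passed between CD103+ and CD103- cells.

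Of 8 partners other than annexins, 3 were higher and 2 lower in ductal than in stromal macrophages (median -0.31, against -0.10 over all tested genes). The shares of all tested genes were 16.3% higher and 14.3% lower. Myh9, the myosin heavy chain that S100A4 binds, had 331 CPM in ductal macrophages, against 78.9 CPM in stromal macrophages (2.07 ± 0.31, adjusted p = 5.99e-04), while S100a4 itself was not called there. In CD11b+ cells, where S100a4 was high, Myh9 was lower than in the CD11b- cells (165 against 301 CPM, -0.86 ± 0.27, adjusted p = 0.0368). That call for Myh9 was lost without any of 7 libraries, those of ductal macrophages (adjusted p = 0.0577 and 0.0573 without replicate 1 and 2), of CD11b+ cells (0.187 and 0.208) and of CD103+ cells (0.064 and 0.0703), and CD103- replicate 1 (0.093), and with a replicate block (0.0557).

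Cacybp, which encodes a binding partner of S100A6, moved in the direction of S100a6 in both comparisons in which it was called. It was lower in ductal than in stromal macrophages (80.7 against 175 CPM, -1.11 ± 0.34, adjusted p = 0.029) and higher in CD11b+ than in CD11b- cells (216 against 95.4 CPM, 1.20 ± 0.28, adjusted p = 0.0095). The first call was lost without ductal replicate 1 or 2 (0.101 and 0.16) or stromal replicate 1 (0.113), and the second without CD11b+ replicate 1 (0.143). Without either ductal library 1 partner was lower in ductal than in stromal macrophages, and without CD11b+ replicate 1 the partners called in CD11b+ cells were 1 higher and 0 lower.

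Il1a, the interleukin whose release involves S100A13, and S100a13 were not distributed alike. Il1a had 868 and 615 CPM in ductal macrophages, where S100a13 was low, and 27.3 and 2.66 CPM in stromal macrophages (5.63 ± 0.91, adjusted p = 9.77e-04, and 8.15 without stromal replicate 1 or 4.76 without replicate 2). It was also higher in CD11b+ than in CD11b- cells (88.6 against 3.61 CPM, 4.62 ± 0.67, adjusted p = 6.38e-04, and 3.76 without CD11b+ replicate 1). Fgf1, the growth factor released with S100A13, was higher in stromal macrophages than in the mean of the dendritic cells (1.80 ± 0.59, adjusted p = 0.0327). This Fgf1 result rested on stromal replicate 2, with 2.93 and 19.8 CPM in the 2 stromal libraries and a difference of -0.16 without that library. Fgf1 was also not called without any 1 of 5 dendritic cell libraries (adjusted p from 0.0565 to 0.0798) and was 2.52 without stromal replicate 1.

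Atp2a2, the gene of the calcium pump bound by S100A1, was higher in ductal than in stromal macrophages (224 against 73.5 CPM, 1.61 ± 0.32, adjusted p = 0.00352), opposite to S100a1. Against the mean of the dendritic cells the partner list gave 2 higher and 1 lower in ductal macrophages (median -0.21, against -0.09), beside 15% and 11.6% of all tested genes. Il1a (6.13 ± 0.59, adjusted p = 2.01e-05) and Ahnak (-4.69 ± 0.41, adjusted p = 9.85e-06) were the largest. The other higher call, Atp2a2, was lost without ductal replicate 1 (adjusted p = 0.236) or 2 (0.109), CD11b+ replicate 2 (0.07), CD103+ replicate 2 (0.0691) or CD103- replicate 2 (0.0611), which left 1 higher. It was also lost with library totals alone (0.417), which gave 1 higher and 4 lower, and without CD103- replicate 1 there were 2 lower. In stromal macrophages the partner list gave 1 higher, Fgf1, and 2 lower, Myh9 and Atp2a2 (median -0.02, against 0.03), beside 20.3% and 18.2% of all tested genes. Atp2a2 was lost there without either ductal library (0.0555 each), stromal replicate 1 (0.217), CD11b+ replicate 1 (0.0793), CD103+ replicate 1 (0.068) or CD103- replicate 1 (0.0593), and with a replicate block (0.0597). The stromal counts thus ran from 0 to 2 higher and from 1 to 2 lower over the libraries left out, with 0 and 1 under the block and 0 and 4 with library totals alone. The partner list gave, in CD11b+ cells 2 higher and 1 lower (median 0.0046, against -0.07, beside 14% and 11% of all tested genes), and in CD103+ cells none of 8.

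Receptors of S100 proteins outside the cell were detected beside S100a8 and S100a9 levels of at most 0.552 and 0.0905 CPM. Tlr4, the receptor gene of calprotectin and bacterial lipopolysaccharide, had 69.2 and 47.9 CPM in ductal macrophages, against 127 and 101 CPM in stromal macrophages. It had 55.0 and 34.8 CPM in CD11b+, 11.3 and 11.8 CPM in CD103+ and 10.2 and 12.5 CPM in CD103- cells. Ager, the gene of the receptor RAGE, did not exceed 1.10 CPM in any library. Of 8 receptor genes, 2 were higher and 2 lower in ductal than in stromal macrophages (median -0.16, against -0.10), beside 16.3% and 14.3% of all tested genes. Cd69, an activation marker of lymphocytes that also binds S100A8 and S100A9, had 174 and 183 CPM in ductal macrophages, against 2.54 and 0.231 CPM in stromal macrophages (adjusted p = 2.20e-04). The log2 fold change of Cd69 was 6.99 ± 0.90, and it was 9.57 without stromal replicate 1 and 6.13 without stromal replicate 2. Cd14, the coreceptor of TLR4, was higher by 2.79 ± 0.44 (adjusted p = 7.83e-04).

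Tlr4 itself was lower in ductal macrophages (-0.96 ± 0.29, adjusted p = 0.0259, but 0.184 without ductal replicate 2 and 0.113 without stromal replicate 1). Ly96, which encodes the TLR4 partner MD-2, was lower by a log2 fold change of -1.63 ± 0.39 (adjusted p = 0.00994), and was not called without ductal replicate 1 or 2 (0.073 and 0.0646) or stromal replicate 1 (0.0817). The count of lower receptors was thus 1 without ductal replicate 1 and 0 without ductal replicate 2 or stromal replicate 1. Against the mean of the dendritic cells 4 receptors were higher in ductal macrophages and none lower (median 0.79, against -0.09), beside 15% and 11.6% of all tested genes. In stromal macrophages 3 receptors were higher and 1 lower (median 0.10, against 0.03), beside 20.3% and 18.2% of all tested genes. Bsg, which encodes basigin, was among the higher ones in both, and its calls were lost without either ductal library (adjusted p = 0.118 and 0.099 for ductal, 0.0559 and 0.0555 for stromal macrophages), which left 3 and 2 higher. The stromal count of higher receptors was also 2 without stromal replicate 1, CD11b+ replicate 1, CD103+ replicate 1 or CD103- replicate 2, without the filter, and with library totals alone, which gave 3 lower. In CD11b+ against CD11b- cells, where 14% of all tested genes were higher and 11% lower, 5 receptors were higher and 1 lower (median 0.81, against -0.07). Among them were Tlr4 (1.98 ± 0.24, adjusted p = 1.82e-04), Cd14 (1.83 ± 0.34, adjusted p = 0.00283) and Nptn, known from human cells as a receptor of S100A8 (1.31 ± 0.30, adjusted p = 0.00969, but 0.22 without CD11b+ replicate 1). This count rested on few libraries. Without CD11b+ replicate 1 it was 2 higher and 0 lower, with Ly96 (0.185), Bsg (0.0994) and Cd36 (0.148), the 1 lower gene, also lost. Without CD11b+ replicate 2, with a replicate block, and without either ductal or either CD103+ library or CD103- replicate 1, the same 3 genes were lost and the count was 3 higher and 0 lower. Without CD103- replicate 2 it was 4 and 0, and library totals alone gave 3 and 1.

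The other 9 S100 genes on the list included 4 that passed the filter. S100a16 had 4.78 and 18.2 CPM in ductal macrophages, against 83.4 and 93.5 CPM in stromal macrophages, 14.5 and 35.0 CPM in CD11b+, 45.3 and 22.2 CPM in CD103+ and 29.6 and 19.0 CPM in CD103- cells. It was lower in ductal than in stromal macrophages (-2.93 ± 0.60, adjusted p = 0.00421, with -2.28 and -4.21 without ductal replicate 1 and 2), and higher in stromal macrophages than in the dendritic cells (1.71 ± 0.41, adjusted p = 0.00761). S100b, known from glia and Schwann cells, had 0 counts in both ductal libraries and 70 and 44 counts in the stromal libraries, at least 10.4-fold higher in stromal macrophages against 3 counts over both ductal libraries. Its means were 0.0688 CPM in CD11b+, 0.317 CPM in CD103+ and 0.444 CPM in CD103- cells, against 3.20 CPM in stromal macrophages. S100b entered the tested genes through the stromal libraries, so these values are a description and no test is given for it. Schwann cell markers (3 of 3) summed to 5.01 and 5.67 CPM in ductal macrophages, against 13.2 and 44.7 CPM in stromal macrophages, and their part was not tested. S100a16 was not called in the other 3 main comparisons, but was lower in ductal macrophages than in the dendritic cells by DESeq2, without the filter, with library totals alone and without ductal replicate 2.

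Of 8 other EF-hand genes, 1 was higher and 1 lower in ductal than in stromal macrophages (median -0.17, against -0.10). These counts are near the shares of all tested genes (16.3% higher and 14.3% lower). Calm2, which encodes calmodulin, was lower (372 against 1218 CPM, -1.71 ± 0.30, adjusted p = 0.00172), and Aif1, the gene of the macrophage protein IBA1, was higher (687 against 315 CPM, 1.13 ± 0.27, adjusted p = 0.00884). In CD11b+ against CD11b- cells, where 14% of all tested genes were higher and 11% lower, 3 EF-hand genes were higher and 1 lower (median 0.46, against -0.07). Only 1 stayed higher without CD11b+ replicate 1 or 2, where Calm2 (adjusted p = 0.111 and 0.0617) and Calm3 (0.0921 and 0.353) were lost, or with library totals alone. Calm3 was also lost with a replicate block (0.0668), without the filter (0.0609) and without any 1 of 7 other libraries (0.0523 to 0.138), which left 2. Capns1, the small calpain subunit, was higher (267 against 108 CPM, 1.31 ± 0.17, adjusted p = 3.59e-04), and Aif1 was lower (12.1 against 164 CPM, -3.77 ± 0.29, adjusted p = 7.65e-06). Against the mean of the dendritic cells, 1 of the 8 EF-hand genes was called higher for ductal macrophages, beside 15% of all tested genes. For stromal macrophages it was 2 of the 8, beside 20.3%. No EF-hand gene was called lower in either comparison, beside 11.6% and 18.2% of all tested genes. The counts called higher are thus near the shares of the whole table. CD103+ cells differed from CD103- cells in none of the 8. Library totals alone gave 5 lower in ductal and 2 lower in stromal macrophages against the dendritic cells.

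Among the members themselves, levels across the 10 libraries went together most for S100a6 with S100a10 (Pearson r = 0.89 in log2 CPM), S100a6 with S100a13 (0.85), S100a4 with S100a6 (0.83) and S100a10 with S100a11 (0.83). S100a1 and S100a11 went apart (-0.32). These values describe 5 populations of 2 libraries that share depth and scaling, so they carry no test. By the same measure over 8664 genes of at least 10 CPM on average, the genes most like S100a10 were Raph1 (0.996), Eps8 (0.986) and Rps4l (0.986). Those most like S100a4 were Lyz1 (0.976), Siva1 (0.976) and Taf10 (0.974), and Lyz1 had means of 107 CPM in ductal macrophages, against 75.5 CPM in stromal macrophages and of 2966, 45.7 and 36.5 CPM in CD11b+, CD103+ and CD103- cells. For S100a6 they were Septin11 (0.984), Dtx2 (0.981) and Gapt (0.978), and for S100a11 they were St3gal5 (0.991), Cd24a (0.989) and Asap1 (0.987). Carhsp1 (0.985), Ech1 (0.979) and Gamt (0.978) were most like S100a1. For S100a13 these were Ndufs5-ps (0.990), Lars2 (0.987) and Ccl2 (0.986).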

How the data were processed

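RNA came from sorted cells by an RNeasy Plus Mini kit and went into TruSeq RNA libraries, per the labels' protocols, and was read as pairs of 80 bases. The authors deposited raw counts for each gene, made with featureCounts on mm10 per the submitters' processing notes. For version, aligner, annotation and strand setting: not given in the sources used here. Counts of the 10 single tables equalled those of the series table. Of 27179 Entrez gene IDs, 25275 matched a RefSeq symbol.

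The test was that of edgeR 4.0.16 in R 4.3.3 (filterByExpr with minimum count 10 and minimum total 15, which left 15681 genes; TMM factors 0.779 to 1.36; 1 quasi-likelihood fit over the 5 populations with 5 residual degrees of freedom; common biological coefficient of variation 0.333). P-values were adjusted by Benjamini and Hochberg over all tested genes, and a call is an adjusted p under 0.05. They measure the spread between replicates called biological by the labels. Standard errors were the size of the log2 fold change divided by the root of the F statistic, and intervals are at 95%. A count of 3 equals 0.119 to 0.683 CPM in a library, and such floors and the interval of the Anxa8 count ratio cover counting error only, while the intervals of log2 fold changes carry the replicate spread of the fit. RPKM used the exon length deposited with the counts, where the plan named the reference annotation. The script was tested on simulated counts. Alternatives were RLE factors, library totals alone, DESeq2 1.42.0, no filter, the replicate number as a block, each library left out, and 2 other lengths, of which the GENCODE union was chosen after seeing the data.

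The S100 genes, lists and tests were chosen with earlier results of these data known. Genes named from a list are the called ones of largest change, up to 4 in each comparison, with those whose role is described beside a member. Genes most like a member are the 3 of highest Pearson correlation in log2 CPM (prior count 2), without predicted genes.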

Additional observations from a re-analysis of the deposited data

How the results depend on the processing

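The number of S100 genes called stayed at 5 higher in CD11b+ against CD11b- dendritic cells and at 0 between CD103+ and CD103- cells under each alternative run. Leaving out 1 library gave 4 to 5 S100 genes lower in ductal than in stromal macrophages, 3 to 5 lower in ductal macrophages than in the dendritic cells, 1 to 2 lower in stromal macrophages than in the dendritic cells, and 37 to 41 of 60 pairwise calls against 43 with all libraries. Over all tested genes, leaving out 1 library gave 1555 to 2480 higher and 981 to 2263 lower in ductal against stromal macrophages (2555 and 2246 with all libraries). It gave 1230 to 2547 higher and 755 to 2305 lower in ductal macrophages against the dendritic cells (2355 and 1822), and 1141 to 2376 higher and 558 to 2206 lower in CD11b+ against CD11b- cells (2202 and 1727). Between CD103+ and CD103- cells it gave 2 to 18 higher and 0 to 11 lower (5 and 0), where DESeq2 gave 119 and 31, no filter 106 and 44, and a replicate block 3 higher. Library totals alone gave 1361 higher and 3849 lower in ductal macrophages against the dendritic cells, 1908 higher and 4175 lower in stromal macrophages against them (3177 and 2851 with TMM), and 1261 higher and 3021 lower in CD11b+ against CD11b- cells. They moved the median log2 fold change of all genes to -0.58, -0.34 and -0.46 in these 3 comparisons, against -0.09, 0.03 and -0.07 with TMM. The cause of these shifts was not tested.

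Signs turned in differences that were not called and in Fgf1, which was called at 1.80. With library totals alone these were S100a1 in ductal macrophages against the dendritic cells (-0.001), S100a11 in CD11b+ against CD11b- (-0.11), against CD103+ (-0.12) and against CD103- cells (-0.11), S100a4 in ductal (-0.39) and stromal (-0.13) macrophages against CD103- cells, and S100a6 in stromal macrophages against CD103- cells (-0.03). Without 1 library they were S100a4 in ductal against stromal macrophages (-0.35 to 0.03 over the libraries left out), Fgf1 in stromal macrophages against the dendritic cells (-0.16 to 2.52), and, in CD103+ against CD103- cells, S100a11 (-0.15 to 0.18) and S100a13 (-0.25 to 0.03). With the GENCODE exon union, an alternative chosen after seeing the data, the S100a10 share of summed RPKM was 5.59% in ductal and 42.2% in stromal macrophages and 30.1%, 25.3% and 29.6% in CD11b+, CD103+ and CD103- cells. Deviations of same-numbered libraries from their population means correlated between -0.176 and 0.177 over 10 pairs of populations. Such correlations cannot show whether same-numbered samples were sorted together. The replicate block left 41 of 60 pairwise calls. Depth limits S100a8, S100a9 and S100b most in the ductal libraries, the shallowest with 1 CD11b+ library.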
